A study of Mus musculus with 12 samples.

Results

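Myeloid C-type lectin receptors are the cell-surface proteins with which macrophages, dendritic cells and neutrophils bind sugars and lipids of microbes and of damaged cells. The genes described here are those of the deposited log2 table whose symbols start with Clec4, Clec5, Clec7 or Clec12. There were 9 such genes among the 10697 genes of the table: Clec4n, Clec4d, Clec4e, Clec4a1, Clec4a2, Clec4a3, Clec5a, Clec7a and Clec12a. The mouse annotation (GENCODE vM21) lists 15 genes with such symbols, and Clec4a4, Clec4b1, Clec4b2, Clec4f, Clec4g and Clec12b were not analysed here. The family was selected on the same thymol-against-DMSO values that are given below, so these values are a description of the chosen genes and carry no test.

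The samples were primary mouse adult fibroblasts (MAFs) of WT genotype, grown out of biopsies of C57BL6/j mice. Thymol, a phenolic compound of thyme and oregano, was dissolved in DMSO and given at 100 µM for 24 h to the Thymol100 group, and the DMSO group received the same volume of solvent. Each group had 6 libraries, and the labels do not say whether these came from separate cultures or animals, so every p-value measures the spread between libraries, which may be technical. RNA was measured by QuantSeq 3′ mRNA sequencing, which counts reads near the end of each transcript, so that levels of different genes need no division by length. The unit of level is log2 CPM, the logarithm of scaled reads (CPM, counts per 1000000) with a small prior count, and a difference is the thymol mean minus the DMSO mean on that scale. The libraries held 5435985 to 9049796 reads over the retained genes.

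Dectin-2 (Clec4n), MCL (Clec4d), Mincle (Clec4e) and Dectin-1 (Clec7a) are activating receptors. Dectin-2, MCL and Mincle signal through the ITAM adaptor FcRγ (Fcer1g), whereas Dectin-1 carries its own hemITAM. Both routes recruit the kinase Syk and, through PLCγ2 and PKCδ, the CARD9, BCL10 and MALT1 complex, which activates NF-κB and the transcription of cytokines and chemokines. Clec5a works with the adaptors DAP12 (Tyrobp) and DAP10 (Hcst). Clec12a is an inhibitory receptor that senses uric acid crystals, and Clec4a2 (DCIR) also carries an inhibitory motif. These receptors are typical of myeloid cells.

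The RNA of these cultures held myeloid transcripts beside those of fibroblasts. All 20 of 20 macrophage markers were measured, with a summed level of 20620 to 22478 CPM in the DMSO libraries and 20791 to 24776 CPM in the thymol libraries. The fibroblast markers, 14 of 15 measured, summed to 15371 to 16696 CPM in DMSO and to 14015 to 15545 CPM in thymol. Lyz2 was the highest gene of the macrophage list, at 13.6 log2 CPM in DMSO and 13.7 with thymol. The sums depend on which genes are listed and do not compare amounts of the cell types. Averaged over its genes, the macrophage list stood at 8.46 ± 0.040 log2 CPM in the solvent control and at 8.46 ± 0.061 after thymol (SD, n = 6), which differ by 0.0034 (p = 0.926, two-sided exact permutation test). The fibroblast list averaged 8.35 ± 0.038 log2 CPM in the solvent control and 8.26 ± 0.023 after thymol (SD, n = 6), which differ by -0.096 (two-sided exact permutation p = 0.0022, the smallest that 924 relabellings can give). Of its genes 9 were lower and 5 higher, and 2 passed the limma threshold (adjusted p under 0.05), where 2.22% of all genes passed. These were the collagen genes Col3a1 (-0.54, adjusted p = 4.4e-10) and Col1a1 (-0.28, adjusted p = 2.9e-05). Postn, a matrix protein gene, had a difference of -0.47 (adjusted p = 0.185) and Pdgfra, a growth factor receptor gene, of 0.33 (adjusted p = 0.281). The part of the fibroblast list's difference in the receptor values was not tested. Of the markers of other cells, S100a8 (neutrophils, 1 of 10 measured), Itgax (dendritic cells, 1 of 10) and Cdh5 (endothelium, 1 of 8) had a value. The 10 lymphocyte, 7 epithelial and 8 mast cell markers were not analysed here, and neither was the neutrophil marker Ly6g or the dendritic cell marker Flt3. In bulk RNA, fewer cells of a type and less RNA per cell cannot be told apart.

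Within the macrophage list the single genes did not share a direction, since 10 were lower and 10 higher. At the limma threshold 4 of the 20 passed, 3 higher and 1 lower, where 2.22% of all genes passed. Ctss, a lysosomal protease, differed by 0.26 (limma adjusted p = 0.00014), Cybb, the catalytic subunit of the phagocyte oxidase, by 0.23 (adjusted p = 0.0061) and Mpeg1, perforin-2, by 0.21 (adjusted p = 0.021), all higher with thymol. Itgam, the integrin CD11b, was lower by -0.31 (adjusted p = 0.00071). Itgax, the integrin CD11c, listed as a dendritic cell marker, was higher by 0.45 (adjusted p = 0.022).

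All of the 9 genes lie on mouse chromosome 6 (GRCm38). Those of the Clec4 group fall within 368 kb, from the start of Clec4a1 (chr6:122921848-122934619, plus strand) to the end of Clec4e (chr6:123281789-123289870, minus strand). Clec4n (chr6:123229843-123247021, plus strand), Clec4d (chr6:123262111-123275265, plus strand) and Clec4e are neighbours at the distal end, with 15.1 kb between Clec4n and Clec4d and 6.52 kb between Clec4d and Clec4e. Clec12a (chr6:129342691-129365303, plus strand) and Clec7a (chr6:129461591-129472779, minus strand) lie 6.05 Mb further on, and Clec5a (chr6:40574894-40585821, minus strand) lies apart from both. The annotation types Clec7a as a polymorphic pseudogene and the other 8 as protein-coding.

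RefSeq start sites (GRCm38.p6) were available for 8 of the 9 genes, Clec4n being the one without. The 250 bases before the start site are shown for Clec4d and Clec4e, the neighbours of Clec4n that were lower with thymol, and for Clec7a, which was higher. Each is written 5′ to 3′ on the strand of its gene, and the capitals mark matches to the motifs searched.
Clec4d, chr6:123261857-123262106, plus strand: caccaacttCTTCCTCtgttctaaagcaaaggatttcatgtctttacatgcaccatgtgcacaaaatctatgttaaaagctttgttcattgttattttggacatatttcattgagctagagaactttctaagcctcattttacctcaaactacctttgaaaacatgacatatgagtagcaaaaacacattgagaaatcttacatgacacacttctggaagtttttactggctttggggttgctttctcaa
Clec4e, chr6:123289872-123290121, minus strand: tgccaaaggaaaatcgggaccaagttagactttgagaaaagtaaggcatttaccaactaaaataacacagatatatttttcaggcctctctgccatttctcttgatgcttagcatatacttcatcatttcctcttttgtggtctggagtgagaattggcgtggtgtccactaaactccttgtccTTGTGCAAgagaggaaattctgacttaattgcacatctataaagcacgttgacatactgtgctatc
Clec7a, chr6:129472780-129473029, minus strand: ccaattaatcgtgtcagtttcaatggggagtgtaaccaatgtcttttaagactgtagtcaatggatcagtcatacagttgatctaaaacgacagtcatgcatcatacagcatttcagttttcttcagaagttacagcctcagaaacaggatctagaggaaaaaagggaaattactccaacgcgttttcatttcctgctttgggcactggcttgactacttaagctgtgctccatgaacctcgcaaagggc

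Both strands were searched for 5 motifs: TTGCNNAA for C/EBP factors, GGGNNNNTCC for NF-κB, GAGGAAG for PU.1, TGANTCA for AP-1 and CACGTG for the E-box of the TFEB and MITF family. No match overlapped another in the windows shown. The Clec4e window held 1 C/EBP match, which starts 66 bases before the start site, and 9.56% of 32851 windows of all genes held that motif. Clec4d held 1 PU.1 match, 241 bases before the start, against 10.6% of all windows. The Clec7a window held none of the 5 motifs. Of the other receptors, Clec12a held a C/EBP, a PU.1 and an AP-1 match, Clec5a 2 PU.1 matches and Clec4a1 a PU.1 and an NF-κB match, and Clec4a2 and Clec4a3 held none. NF-κB matches occurred in 16.5% of all windows, AP-1 matches in 6.75% and E-box matches in 6.02%. In the 10983 windows of the analysed genes the shares were 7.31% (C/EBP), 20.5% (NF-κB), 10.9% (PU.1), 4.5% (AP-1) and 8.48% (E-box). A match is a run of letters and not a known binding site.

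The receptors spanned a wide range of levels in the solvent control. Clec4n and Clec4d were the highest, at 8.26 ± 0.12 and 8.24 ± 0.099 log2 CPM (SD, n = 6), above 95.4% and 95.3% of all genes. Clec4n exceeded Clec4d in 4 of 6 DMSO libraries and the ranges of both overlapped, so that this pair has no clear order. Clec7a at 7.06 ± 0.19 and Clec12a at 6.63 ± 0.14 log2 CPM formed the next step, with overlapping ranges but with Clec7a above Clec12a in 6 of 6 libraries. Clec5a followed at 5.43 ± 0.13 log2 CPM, separate from its neighbours on both sides. Clec4e at 4.08 ± 0.29 and Clec4a2 at 4.00 ± 0.14 log2 CPM could not be ordered, and Clec4a1 at 3.64 ± 0.24 and Clec4a3 at 2.57 ± 0.46 log2 CPM were the lowest.

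**Figure D1:**
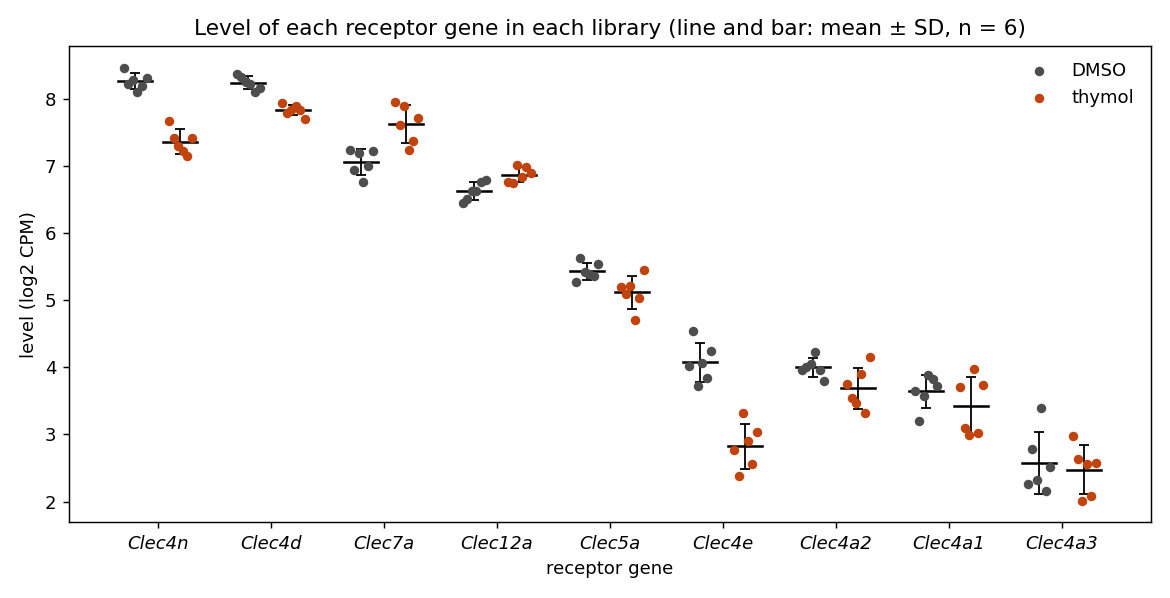
Level of each receptor gene in log2 CPM (vertical axis), with 1 point for each of the 6 DMSO (grey) and 6 thymol (orange) libraries; the horizontal line is the mean and the bar the SD. Points of Clec4n, Clec4d and Clec4e with thymol lie below all of their DMSO points, those of Clec7a lie above, and the other 5 genes overlap.

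Thymol-treated libraries had less RNA of Clec4n, Clec4d and Clec4e and more of Clec7a. For these 4 of the 9 genes the groups did not overlap, compared with 1.68% of all genes. The same 4 passed a limma adjusted p of 0.05, against 2.22% of all genes: 3 were lower, where 1.57% of all genes were lower, and 1 was higher, where 0.654% of all genes were higher. Nothing is read from these counts, since the family was chosen on this contrast. The median difference of the 9 genes was -0.31, beside 0.0026 for all genes, and 7 were lower and 2 higher.

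Clec4n, the gene of Dectin-2, which binds fungal mannans, ranged from 8.10 to 8.46 log2 CPM in DMSO with a median of 8.25. With thymol it ranged from 7.14 to 7.67 log2 CPM with a median of 7.36. Every thymol library thus lay below every DMSO library. The difference was -0.90 ± 0.068 (SE), a level 1.87-fold lower, and it rested on 1824 to 2648 reads per DMSO library and 870 to 1312 per thymol library. The odd-numbered and the even-numbered libraries gave -0.94 and -0.86.

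Clec4d, whose product MCL binds the mycobacterial glycolipid TDM and pairs with Mincle, had the second difference of this kind. Its level ran from 8.10 to 8.37 log2 CPM in DMSO (median 8.23) and from 7.70 to 7.94 log2 CPM with thymol (median 7.83). The groups did not overlap. The difference was -0.41 ± 0.058 (SE), or 1.33-fold lower.

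Clec4e encodes Mincle, which binds TDM and a nuclear protein set free by dying cells. Its level ran from 3.73 to 4.54 log2 CPM in DMSO (median 4.05) and from 2.38 to 3.32 log2 CPM with thymol (median 2.83), again without overlap. The difference of -1.25 ± 0.20 (SE) was the largest of the family in size, but it came from few reads, 88 to 160 per DMSO library and 29 to 62 per thymol library. With 10 CPM added before the logarithm it was -0.66, smaller in size than the -0.86 of Clec4n under that setting. The Clec4e difference was -0.98 in the odd-numbered libraries, where it missed the threshold, and -1.51 in the even-numbered ones.

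Clec7a, the gene of the β-glucan receptor Dectin-1, went the other way. Its level ran from 6.76 to 7.23 log2 CPM in DMSO (median 7.10) and from 7.23 to 7.94 log2 CPM with thymol (median 7.66). The separation was narrow at the edge, since the highest DMSO library stood at 7.229 and the lowest thymol library at 7.234 log2 CPM. The difference was 0.57 ± 0.086 (SE), a level 1.48-fold higher, on 718 to 1174 reads per DMSO library and 880 to 1592 per thymol library. Without the mean-variance trend in the limma model Clec7a no longer passed the threshold.

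The remaining 5 genes overlapped between the groups. Clec12a ran from 6.45 to 6.79 log2 CPM in DMSO (median 6.62) and from 6.74 to 7.01 with thymol (median 6.86), so that 4 of 6 thymol libraries lay above every DMSO library. Its difference of 0.24 ± 0.075 (SE) missed the threshold in the full set and passed it without DMSO library 6 (0.27) or without thymol library 1 (0.27). Clec5a, whose product is a dengue virus receptor, ran from 5.27 to 5.62 log2 CPM in DMSO and from 4.70 to 5.45 with thymol, with a difference of -0.31 ± 0.11 (SE) and 5 of 6 thymol libraries below every DMSO library. The 3 Clec4a genes had few reads, 24 to 131 per library, and their differences were -0.31 ± 0.17 for Clec4a2, -0.22 ± 0.20 for Clec4a1 and -0.096 ± 0.28 (SE) for Clec4a3. The Clec4a1 difference was -0.44 in the odd-numbered and 0.00047 in the even-numbered libraries. The Clec4a3 difference changed its sign to 0.068 without DMSO library 4 and to 0.11 in the odd-numbered libraries, so that no direction can be given for Clec4a1 and Clec4a3. Clec4a2 ran from -0.48 to -0.14 over 20 other settings and passed the threshold in none.

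The order of the receptor levels differed between the groups. In DMSO, Clec4n stood 1.20 ± 0.11 above Clec7a on the log2 CPM scale (SD of the within-library difference, n = 6), and it was above Clec7a in 6 of 6 libraries. With thymol it stood -0.27 ± 0.19 from Clec7a and was below it in 6 of 6 libraries. The library closest to equality had a difference of -0.016. Clec4n and Clec4d, level with each other in DMSO (0.023 ± 0.11), were apart with thymol (-0.47 ± 0.19), and Clec4n was the lower in 6 of 6 libraries. With thymol, Clec4d and Clec7a could not be ordered, since each was the higher in 3 of 6 libraries.

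**Figure D2:**
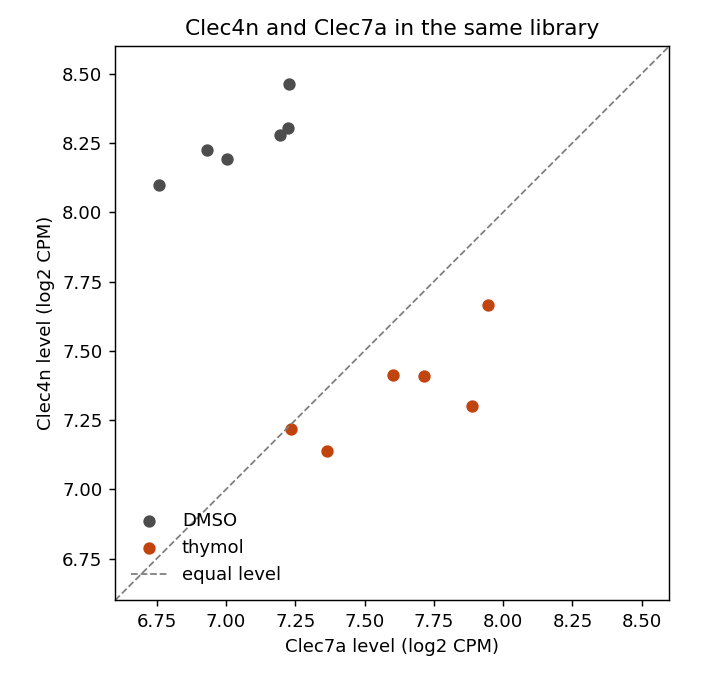
Clec4n level against Clec7a level, both in log2 CPM, with 1 point per library; the dashed line marks equal levels. All 6 DMSO libraries (grey) lie above the line by 1.08 to 1.34, and all 6 thymol libraries (orange) lie below it by 0.016 to 0.59.

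The 9 receptors together held 936 ± 46.9 CPM in DMSO and 781 ± 62.1 CPM with thymol (SD, n = 6 each). Clec4n accounted for 32.8% ± 1.28 of that sum in DMSO and for 21.1% ± 1.54 with thymol. Clec7a accounted for 14.3% ± 1.33 in DMSO and 25.5% ± 3.06 with thymol. The share of Clec4d was 32.3% ± 1.68 in DMSO and 29.3% ± 2.59 with thymol, and that of Clec12a was 10.6% ± 1.28 and 15.1% ± 1.81. Clec4e made up 1.80% ± 0.39 in DMSO and 0.892% ± 0.20 with thymol. The gene with the largest difference as reported thus carried little of the receptor RNA.

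Subtracting the macrophage marker mean of the same library shifts each receptor difference by 0.0034, the difference of that mean, and so bears on the spread within the groups only. The SD of Clec4n within the groups went from 0.12 to 0.095 in DMSO and from 0.19 to 0.13 with thymol when the marker mean was subtracted. For Clec7a it went from 0.19 to 0.17 and from 0.28 to 0.24. Thymol library 1, which had the highest macrophage marker mean, also had the highest thymol values of Clec4n, Clec4d and Clec7a. DMSO library 1 likewise had the highest DMSO values of these genes (8.46, 8.37 and 7.229 log2 CPM). Without thymol library 1 the differences were -0.96 for Clec4n, -0.43 for Clec4d, -1.24 for Clec4e and 0.50 for Clec7a.

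The differences were not shared across each stretch of chromosome 6. In the Clec4 cluster the 3 lower genes with non-overlapping groups were the 3 at the distal end, next to each other, and they differed by unequal amounts. The measured genes proximal to the cluster were Foxj2 (0.032), Necap1 (-0.13) and C3ar1 (0.22), the receptor of the complement fragment C3a, which was higher with thymol (9.24 ± 0.10 to 9.46 ± 0.078 log2 CPM, SD, limma adjusted p = 0.0080). Near Clec7a, the oxidised-LDL receptor gene Olr1 differed by -0.37 ± 0.34 (SE) and the autophagy gene Gabarapl1 by -0.015 ± 0.068 (SE), neither past the threshold (adjusted p = 0.763 and 0.972). Near Clec5a, the mitochondrial gene Ssbp1 differed by 0.27 ± 0.13 (SE, adjusted p = 0.378).

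**Figure D3:**
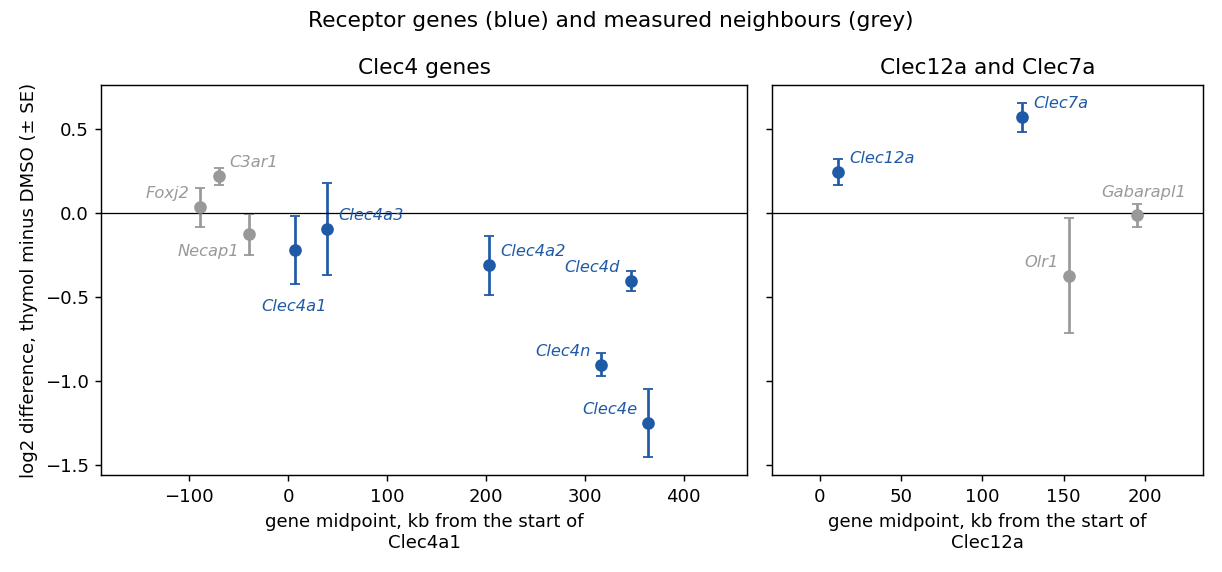
Difference in log2 CPM, thymol minus DMSO, with its SE (vertical axis) against the midpoint of each gene in kb from the start of Clec4a1 (left) or Clec12a (right); receptor genes are blue and other measured genes grey. Clec4n, Clec4d and Clec4e, at 317 to 364 kb, lie between -0.41 and -1.25, and Clec7a lies at 0.57.

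The adaptors, kinases, CARD9 complex members, phosphatases and ligases that act behind these receptors had 20 of 22 listed genes measured. Of these, 0 passed the limma adjusted p of 0.05, which is near the 2.22% of all genes that passed, so the count says nothing particular about the list. At an unadjusted p of 0.05 there were 2 of 20, beside 1261 of all 10697 genes, and voom on recovered reads also called 0. Fcer1g, the FcRγ adaptor of Dectin-2, MCL and Mincle, stood at 9.24 ± 0.078 log2 CPM in DMSO and 9.28 ± 0.085 with thymol (SD, n = 6, adjusted p = 0.832). Tyrobp stood at 8.45 ± 0.045 and 8.50 ± 0.035 log2 CPM (adjusted p = 0.824). Syk had a difference of -0.13 ± 0.10 (SE, adjusted p = 0.708), Plcg2 of -0.024 ± 0.12 (adjusted p = 0.977) and Bcl10 of -0.11 ± 0.086 (adjusted p = 0.712). Malt1, the protease of the complex, had the largest value, 0.46 ± 0.21 (adjusted p = 0.357), with 57.3 reads per DMSO library on average. Malt1 differed by 0.87 in the odd-numbered and by 0.059 in the even-numbered libraries. Card9 and the Src-family kinase Fgr were not analysed here. A p that misses the threshold does not show equal levels, and equality was not tested. The SE of Fcer1g and Tyrobp was 0.050 and 0.051, smaller than that of any receptor, in a model whose SE depends in part on a gene's level.

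Among the genes that this pathway is known to induce, 12 of 20 were measured, with 3 lower and 1 higher at the threshold, where 1.57% of all genes were lower and 0.654% higher. The median difference of the 12 was -0.065, beside 0.0026 for all genes. Cxcl2, a neutrophil-attracting chemokine, fell from 4.26 ± 0.32 to 2.29 ± 0.44 log2 CPM (SD, n = 6), a difference of -1.96 ± 0.22 (SE, limma adjusted p = 8.4e-09), with all 6 thymol libraries below every DMSO library. This difference came from few reads, 91 to 179 per DMSO library and 14 to 40 per thymol library. With 10 CPM added before the logarithm it was -0.98. Il6, the acute-phase cytokine, fell from 4.27 ± 0.19 to 3.50 ± 0.19 log2 CPM (adjusted p = 0.0033), also without overlap, but missed the threshold in the odd-numbered (-0.75) and the even-numbered libraries (-0.80) alone. Nlrp3, the inflammasome sensor, fell from 3.89 ± 0.47 to 2.98 ± 0.59 log2 CPM (adjusted p = 0.017) with overlapping groups. It had 71 to 165 reads per DMSO library and 27 to 93 per thymol library. Nlrp3 missed the threshold without the mean-variance trend and in the odd-numbered (-0.83) and the even-numbered libraries (-0.99) alone. It also missed it without DMSO library 2 (-0.84), DMSO library 4 (-0.76), thymol library 1 (-0.77) or thymol library 4 (-0.77). With 10 CPM added before the logarithm, Il6 differed by -0.47 in place of -0.77 and Nlrp3 by -0.47 in place of -0.91. Ccl4, a chemokine for monocytes and T cells, rose from 5.55 ± 0.18 to 5.98 ± 0.22 log2 CPM (adjusted p = 0.0078), with 5 of 6 thymol libraries above every DMSO library. The Ccl4 call was lost without the mean-variance trend and in the even-numbered libraries, where the difference was 0.20 in place of 0.43. The other 8 did not pass. Among them were Cxcl1 at -0.97 ± 0.29, Egr2 at 0.87 ± 0.28, Tnf at -0.41 ± 0.16 and Ptgs2 at -0.029 ± 0.057 (SE). Their limma adjusted p-values were 0.061, 0.0863, 0.259 and 0.923 in that order. Of all 12 output genes, 7 were lower and 5 higher with thymol. Several genes of the list are also expressed by fibroblasts.

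**Figure D4:**
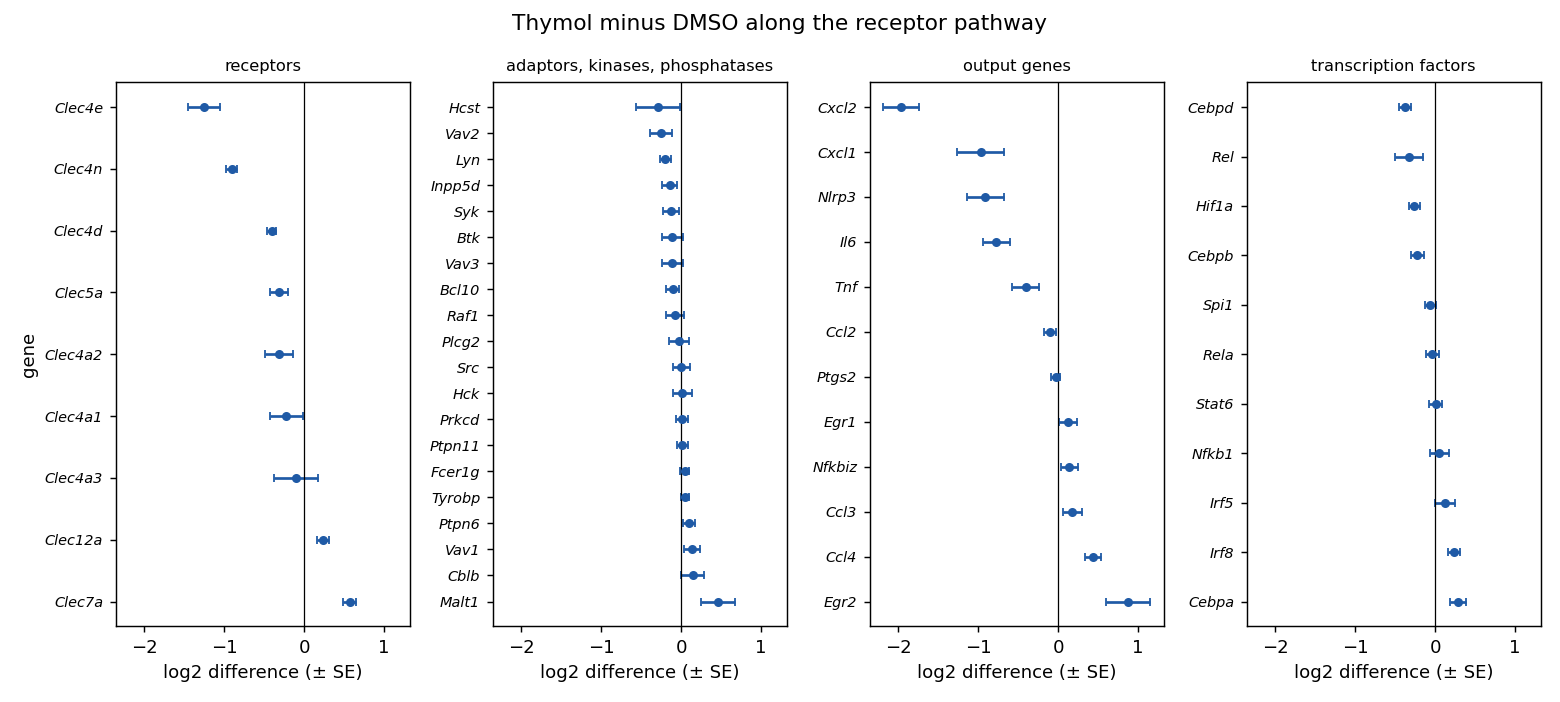
Difference in log2 CPM, thymol minus DMSO, with its SE (horizontal axis) for the 9 receptors, 20 signalling genes, 12 output genes and 11 transcription factors measured, each panel sorted by value. Receptors range from -1.25 to 0.57 and output genes from -1.96 to 0.87, and the signalling genes lie between -0.28 and 0.46.

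Of 13 listed transcription factors of myeloid cells and of the NF-κB and C/EBP families, 11 were measured and 2 passed, both lower with thymol, where 1.57% of all genes passed as lower. Of the 11, 6 were lower and 5 higher, with a median difference of -0.033. Cebpd, a C/EBP factor induced in inflammation, fell from 6.73 ± 0.077 to 6.35 ± 0.15 log2 CPM (SD, n = 6, limma adjusted p = 0.0015), and the groups did not overlap. The Cebpd call was lost without the mean-variance trend and in the odd-numbered libraries (-0.28). Hif1a, the oxygen-regulated factor that also acts in activated macrophages, fell from 7.40 ± 0.11 to 7.14 ± 0.16 log2 CPM (adjusted p = 0.027). The Hif1a call was lost without the mean-variance trend and in the odd-numbered libraries (-0.090). It was also lost without DMSO library 2, 4 or 6 (-0.25, -0.23 and -0.25) or thymol library 2, 3 or 6 (-0.26, -0.24 and -0.22). Spi1, the gene of the myeloid master regulator PU.1, differed by -0.060 ± 0.069 (SE, adjusted p = 0.830) and Cebpb by -0.22 ± 0.083 (adjusted p = 0.204). Cebpa and Irf8 went the other way without passing, by 0.28 ± 0.097 (SE, adjusted p = 0.132) and 0.24 ± 0.075 (adjusted p = 0.0793).

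Other lectins and lectin receptors were listed for comparison. Of 36 listed genes, 12 were measured and 1 passed, where 2.22% of all genes did. This was Lgals3, galectin-3, a soluble β-galactoside-binding lectin, which rose from 10.33 ± 0.043 to 10.63 ± 0.13 log2 CPM (SD, n = 6, limma adjusted p = 7.0e-05), with every thymol library above every DMSO library. The Lgals3 call was lost without the mean-variance trend. The mannose receptor gene Mrc1 differed by -0.20 ± 0.071 (SE, adjusted p = 0.157), and the scavenger receptor gene Msr1 by -0.25 ± 0.078 (adjusted p = 0.0791). The median difference of the 12 was 0.022.

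The genes whose profiles over the 12 libraries were closest to a receptor were found by the root mean square distance between profiles, each centred on its own mean. Closest to Clec4n were Cfp, which encodes the complement factor properdin (distance 0.12), Pde4b, a cAMP phosphodiesterase (0.17), and Gda, guanine deaminase (0.21), where the median gene stood at 0.52. Closest to Clec4e were Cd14, the co-receptor for lipopolysaccharide (0.32), Clec4n (0.37) and Garnl3 (0.37), where the median gene stood at 0.72. Closest to Clec7a were Cd180, a Toll-like receptor homologue (0.16), Arhgap25 (0.16) and Mmp12, the macrophage elastase (0.16), with a median of 0.41. These distances include the group difference and are a description only. Clec7a and Mmp12 differed by 0.57 and 0.45 between the groups, and Clec4n and Cfp by -0.90 and -0.79.

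Family members resemble each other in sequence, so the annotated transcripts were compared in words of 65 bases, the length of a read. In 8 of the 9 genes, 0 words occurred in transcripts of another gene. In Clec4a2, 4.58% of the words did, and 5.87% of those in the last 500 bases, which were shared with Clec4a4 and Clec4b1, so its reads are less certain. Clec4a2 also overlaps a processed pseudogene, Gm44132, on the same strand.

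Across 21 other settings the directions of Clec4n, Clec4d, Clec7a and Clec12a did not change. The model without the trend, the replicate block, the odd or even term and the level filter leave each difference as it is by construction. The other settings reuse the same libraries on which the family was chosen, so the stable directions are a description only. Clec4n ranged from -0.96 to -0.86, Clec4d from -0.43 to -0.38, Clec7a from 0.50 to 0.65 and Clec12a from 0.18 to 0.30. Clec5a ranged from -0.43 to -0.20, and Clec4e, in 20 settings, from -1.51 to -0.66.

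**Figure D5:**
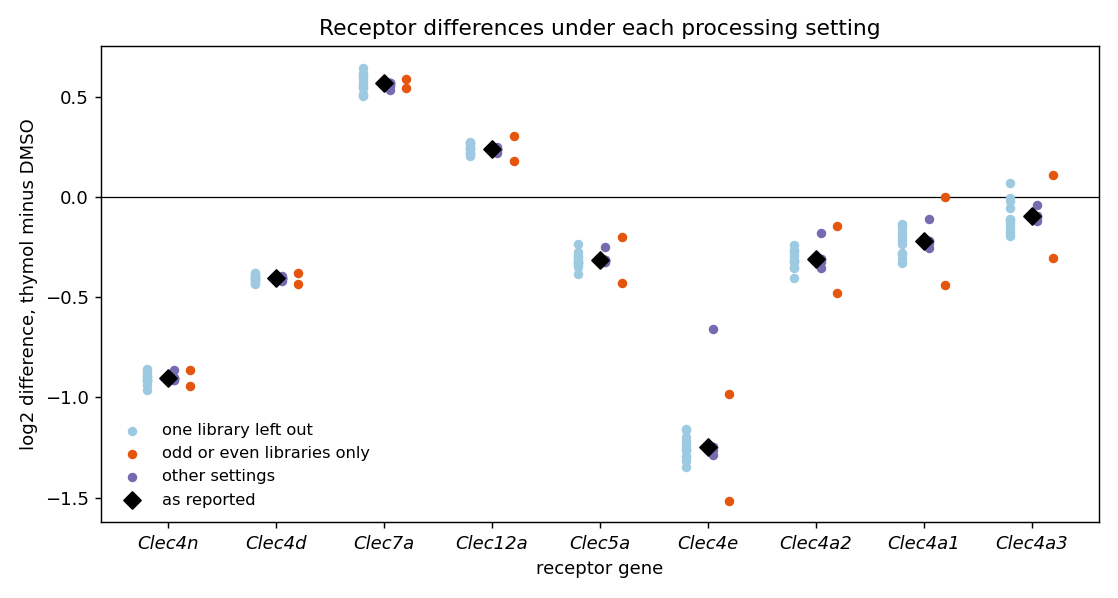
Difference in log2 CPM, thymol minus DMSO, of each receptor gene as reported (black diamond) and with 1 library left out (light blue), in odd or even libraries alone (orange) and under the other settings (purple). Clec4n, Clec4d and Clec4e stay below 0 and Clec7a and Clec12a above it, while Clec4a1 and Clec4a3 reach or cross 0.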

How the data were processed

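Libraries of 6 thymol-treated and 6 DMSO-treated MAF samples were compared. Per the labels and the methods of the study, the authors aligned reads to GRCm38 with STAR 2.5.3, counted them per gene with HTSeq 0.6.1, kept annotated genes with at least 30 reads in 6 samples and scaled the libraries. The deposited values are log2 CPM with a prior count of about 1.96 reads, in 1 table of 10697 genes and 12 columns. Undoing the logarithm gave whole reads (100% for values below 200 reads, with a tolerance of 0.02 reads), which supplied the depths and read numbers, and 98.0% of the genes met the stated minimum. A prior of this size draws low genes towards a difference of 0, and read numbers speak of counting error only, since PCR copies are not independent molecules.

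Groups were taken from the labels. All 12 libraries entered limma 3.58.1 (R 4.3.3; lmFit and eBayes with a mean-variance trend, 2 groups, no covariate), two-sided, adjusted by Benjamini-Hochberg over all genes with a threshold of 0.05. The same fit was also run on simulated reads drawn without a replicate effect, and no result here rests on that run. Marker means were compared by an exact permutation test. The members and all gene lists, motifs and neighbours were chosen with earlier results of these data known. Named are all receptor genes, genes past the threshold on the signalling, output, transcription factor and other lectin lists, Fcer1g, Tyrobp, Syk, Card9, Bcl10, Malt1, Plcg2, Spi1 and Cebpb whatever their value, the 3 genes with the closest profile to Clec4n, Clec4e and Clec7a, and measured genes within 100 kb of a receptor. Fgr, Cxcl1, Egr2, Tnf, Ptgs2, Cebpa, Irf8, Mrc1, Msr1 and the cell markers were named after their values were seen. Alternatives were the model without the trend, voom on the recovered reads, a pseudocount of 10 CPM, a minimum mean of 5 log2 CPM, median centring, the replicate block, odd or even library numbers and each library left out. Promoter windows are from RefSeq (GRCm38.p6) and gene positions from GENCODE vM21.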

Additional observations from a re-analysis of the deposited data

Results flagged for a closer look

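In groups of 6 libraries, the highest or lowest library stood far from the rest in 4 of 54 groups examined, where chance gives about 1 in 20 (2.7 groups). In thymol library 1 the macrophage list averaged 8.58 log2 CPM, where the next thymol library stood at 8.46. Its Fcer1g level was 9.45 log2 CPM (next 9.30), and its Cebpb level was the lowest of the thymol group at 6.35 log2 CPM (next 6.66). In thymol library 4 the Syk level was the highest of the group at 5.64 log2 CPM (next 5.48). The cause was not tested. No receptor gene had such a library in either group.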

How the results depend on the processing

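The number of receptor genes past the threshold was 4 as reported, 3 to 5 over 21 other settings and 4 to 5 with 1 library left out. The number over all genes was 238 (70 higher), 238 with voom on recovered reads (226 of them shared), 57 without the mean-variance trend, 70 in the odd-numbered libraries and 172 to 270 with 1 library left out. For the output genes it was 4 as reported, 3 to 5 with 1 library left out, 1 in the even-numbered libraries, 2 in the odd-numbered libraries, 2 without the trend and 1 of 6 among genes with a mean of at least 5 log2 CPM. It was 0 for the signalling genes in all 21 settings. The cause of these changes was not tested, except that the odd or even libraries alone and the filter leave fewer libraries or genes. The difference of the macrophage marker mean, 0.0034 as reported, was -0.0075 after median centring, -0.019 in the even-numbered libraries and -0.021 to 0.013 with 1 library left out, so that it has no direction. That of the fibroblast marker mean was -0.096, with -0.073 in the odd-numbered and -0.12 in the even-numbered libraries (exact permutation p = 0.1 in each, the smallest that 3 against 3 allows) and -0.11 to -0.086 with 1 library left out. Genes under a mean of 5 log2 CPM, among them Clec4e and the 3 Clec4a genes, have no value under that filter.

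Libraries of the 2 groups share the numbers 1 to 6. Across genes with a mean of at least 5 log2 CPM, same-numbered libraries had correlations of -0.051 to 0.27, and only number 1 matched its own number best. Single receptors differed from this: Clec4n, Clec4d and Clec7a were highest in library 1 of both groups. Clec7a was also lowest in library 4 of both (6.76 and 7.23 log2 CPM). Clec4e went against the numbers, with library 2 highest in DMSO (4.54) and lowest with thymol (2.38). The SEs given here take no pairing into account, and pairing of the receptors was not tested. With the replicate block 332 genes passed, 238 of them those called without it, and 5 receptor genes, Clec12a being added. For the marker means the replicate block, chosen after seeing the data, left the differences at 0.0034 and -0.096 (exact permutation p = 0.875 and 0.031), and a term for odd or even numbers, also added then, gave p = 0.925 and 0.005.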
